A study of Mus musculus with 60 samples.

Results

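The 8 genes of the opioid system were followed in RNA-Seq of the mouse dentate gyrus (DG): the peptide precursors *Penk*, *Pdyn*, *Pnoc* and *Pomc*, and the receptors *Oprd1*, *Oprk1*, *Oprm1* and *Oprl1*. They were taken by name from the 46480 genes of the count tables. The set was chosen by the *Penk* counts, which were higher after environmental enrichment than in standard housing, so comparisons of enriched with standard housing in these genes are given as a description, without p values, and calls among them support nothing. All 8 genes passed the filter on low counts, under which 17040 genes were tested.

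Samples came from male C57BL6J mice collected at 80 days of age. From weaning on day 22 the mice spent 8 weeks either in standard housing (SH), with 3 mice per cage, or in an enriched environment (EE), with 12 mice in a larger cage holding running wheels and changing toys. EE thus joined wheels, novelty, space and group size, and their parts cannot be told apart. Each sample pooled whole tissue punched from several mice, the dorsal DG from coronal and the ventral DG from horizontal slices, and 5 samples of each region in each housing made 4 groups. Values are over 18 samples from 9 pools (4 SH, 5 EE), since SH replicate 3 was left out in both regions.

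Opioid peptides are cut from large precursor proteins, packed into dense-core vesicles and released on strong activity. *Penk* codes for proenkephalin, the source of enkephalins, which act mainly on the delta and mu receptors (*Oprd1*, *Oprm1*). *Pdyn* codes for prodynorphin, whose dynorphins act on the kappa receptor (*Oprk1*), and *Pnoc* for the precursor of nociceptin, the ligand of *Oprl1*. All 4 receptors couple to inhibitory G proteins, and in the hippocampus dynorphin is known from the granule cells of the DG and their mossy fibers.

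The 18 libraries had 22919364 to 28301861 fragments counted on genes (median 25816352.5). The pool left out had 789 and 308 counts of *Xist*, an RNA of female cells, in its dorsal and ventral sample, against 0 to 16 in the other samples. The tissue held its defining neurons: the granule cell factor *Prox1* had a level of 18.7 ± 4.62 TPM (SD, n = 4) in dorsal SH and 8.53 ± 1.75 TPM (n = 4) in ventral SH. Of 11 granule cell markers, 10 were higher in dorsal than ventral DG by the test below, and all 12 choroid plexus markers were lower. In bulk tissue, fewer cells of a type and less RNA per cell cannot be told apart.

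In the mouse genome (GRCm38) the precursor genes lie on separate chromosomes: *Penk* at chr4:4133531-4138819 on the minus strand, *Pdyn* at chr2:129686565-129699844 on the minus strand, *Pnoc* at chr14:65400673-65425472 on the minus strand and *Pomc* at chr12:3954951-3960642 on the plus strand. Among the receptors, *Oprd1* is at chr4:132110726-132144486 (minus), *Oprk1* at chr1:5588466-5606131 (plus), *Oprm1* at chr10:6758506-7038198 (plus) and *Oprl1* at chr2:181715016-181720985 (plus). An exon of *Penk* overlaps the noncoding gene *A830012C17Rik* on the other strand, and exons of *Oprm1* overlap *Gm10945* and *Ipcef1* on the other strand. Counts used the strand of the gene, which separates these pairs.

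RefSeq promoter windows of 300 bases ran from 250 before to 50 after a start site (GRCm38.p6). They were matched for 5 of the 8 genes, not including *Penk*, *Pnoc* and *Oprk1*. The window nearest to the annotated start of each gene was taken, and other start sites were not examined. Its start site was 94 bases from the annotated one for *Pdyn* and 87 for *Oprm1*. Shown 5′ to 3′ on the strand of the gene are the windows of the 2 genes with higher dorsal expression (*Pdyn*, chr2:129699889-129700188, minus; *Oprd1*, chr4:132144437-132144736, minus) and of 2 with higher ventral expression (*Oprl1*, chr2:181714766-181715065, plus; *Oprm1*, chr10:6758343-6758642, plus). Capitals mark CpG dinucleotides, the main sites of DNA methylation.
Pdyn: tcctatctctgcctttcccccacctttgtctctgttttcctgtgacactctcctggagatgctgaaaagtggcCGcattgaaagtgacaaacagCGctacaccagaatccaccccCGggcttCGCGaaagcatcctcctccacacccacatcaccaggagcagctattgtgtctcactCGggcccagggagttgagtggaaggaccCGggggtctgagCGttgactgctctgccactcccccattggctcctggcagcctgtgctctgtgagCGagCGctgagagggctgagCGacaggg
Oprd1: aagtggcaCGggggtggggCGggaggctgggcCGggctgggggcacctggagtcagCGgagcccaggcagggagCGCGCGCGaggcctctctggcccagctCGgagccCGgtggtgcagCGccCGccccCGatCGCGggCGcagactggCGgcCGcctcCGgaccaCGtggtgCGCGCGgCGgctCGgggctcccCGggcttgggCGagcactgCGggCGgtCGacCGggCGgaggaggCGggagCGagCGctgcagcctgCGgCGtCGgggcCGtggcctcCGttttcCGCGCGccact
Oprl1: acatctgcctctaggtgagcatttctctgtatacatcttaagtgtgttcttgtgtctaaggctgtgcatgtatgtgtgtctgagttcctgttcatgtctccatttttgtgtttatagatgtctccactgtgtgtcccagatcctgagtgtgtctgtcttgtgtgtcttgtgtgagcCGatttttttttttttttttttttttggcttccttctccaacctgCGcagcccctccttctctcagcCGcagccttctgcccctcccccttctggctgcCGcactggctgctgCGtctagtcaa
Oprm1: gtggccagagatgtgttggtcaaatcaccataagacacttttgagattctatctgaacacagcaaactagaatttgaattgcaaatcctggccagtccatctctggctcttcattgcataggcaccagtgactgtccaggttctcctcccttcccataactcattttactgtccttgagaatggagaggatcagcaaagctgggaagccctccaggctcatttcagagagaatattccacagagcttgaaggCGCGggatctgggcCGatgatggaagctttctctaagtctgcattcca
The *Oprd1* window had 43 CpG sites and a GC content of 79.3%, against a median of 7 sites and 52.7% over 32851 windows of this length. *Pdyn* had 11 sites, *Oprl1* 5 and *Oprm1* 3. None of the 5 windows held the cAMP response element TGACGTCA (in 1.79% of all windows), its core TGACG (20.8%), the AP-1 motif TGANTCA (7.81%) or the Egr motif GCGNGGGCG (5.55%), searched on both strands, and the E-box CAGATG (17.2%) was in those of *Oprl1* and *Pomc*. These letters describe the windows only and say nothing of factors bound elsewhere.

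Levels between genes were compared in TPM, which is scaled for transcript length. Over the 18 samples the order of mean levels was *Oprl1*, *Penk*, *Pdyn*, *Pnoc*, *Oprd1*, *Pomc*, *Oprm1* and *Oprk1*. The 3 leading genes changed places between groups. In dorsal SH, *Pdyn* led with 9.45 ± 1.95 TPM (SD, n = 4), above *Oprl1* with 7.68 ± 1.46 and *Penk* with 6.53 ± 1.46. Each stood above the next in all 4 samples, though their ranges over samples overlapped. In dorsal EE, *Penk* led with 13.6 ± 1.61 TPM (n = 5), and its range did not overlap that of *Pdyn*, at 8.04 ± 1.41. In ventral SH, *Oprl1* led with 11.4 ± 1.94 TPM (n = 4), followed by *Pdyn* with 4.96 ± 1.06 and *Penk* with 2.92 ± 0.179, with no overlap between them. In ventral EE, *Oprl1* at 9.76 ± 2.14 TPM (n = 5) stayed above *Penk* at 5.61 ± 2.53, and *Penk* was above *Pdyn* (3.84 ± 1.45) in all 5 samples. At the low end, *Oprk1* had 0.054 to 0.168 TPM on average in the 4 groups and was the lowest gene in each.

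**Figure D1:**
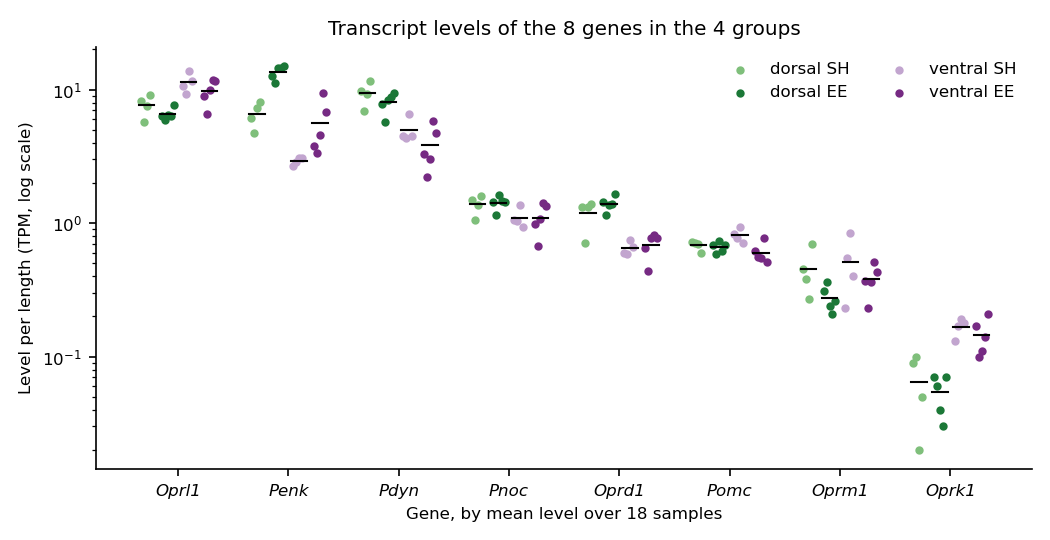
Level per length (TPM, log axis) of the 8 opioid genes, ordered by mean over 18 samples. Points are samples, colored by group (n = 4 in SH and n = 5 in EE), and bars are group means. *Penk* moves from 2.92 TPM in ventral SH to 13.6 TPM in dorsal EE, while *Oprk1* stays at 0.054 to 0.168 TPM.

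Differences between regions and housings were tested on the counts with the quasi-likelihood test of edgeR, and values per sample are CPM, that is, counts relative to the library total as corrected by TMM. A gene was called at a false discovery rate (FDR, Benjamini-Hochberg over all tested genes) under 0.05 with a change of 1.2-fold or more. Between dorsal and ventral DG, with the SH and EE differences averaged, 6 of the 8 genes were called, beside 32.7% of all genes tested. Dorsal expression was higher for *Penk*, *Pdyn* and *Oprd1* (3 genes, beside 15.9% of all) and lower for *Oprk1*, *Oprm1* and *Oprl1* (3 genes, beside 16.8%). Within SH alone 5 of 8 were called (28.3% of all genes) and within EE alone 5 of 8 (29.8%), with *Oprm1* under neither. Dorsal and ventral samples did not overlap for 5 of 8 genes in SH (38.4% of all genes) and in EE (28.8%), the same 5 in both: *Penk*, *Pdyn*, *Oprd1*, *Oprk1* and *Oprl1*.

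**Figure D2:**
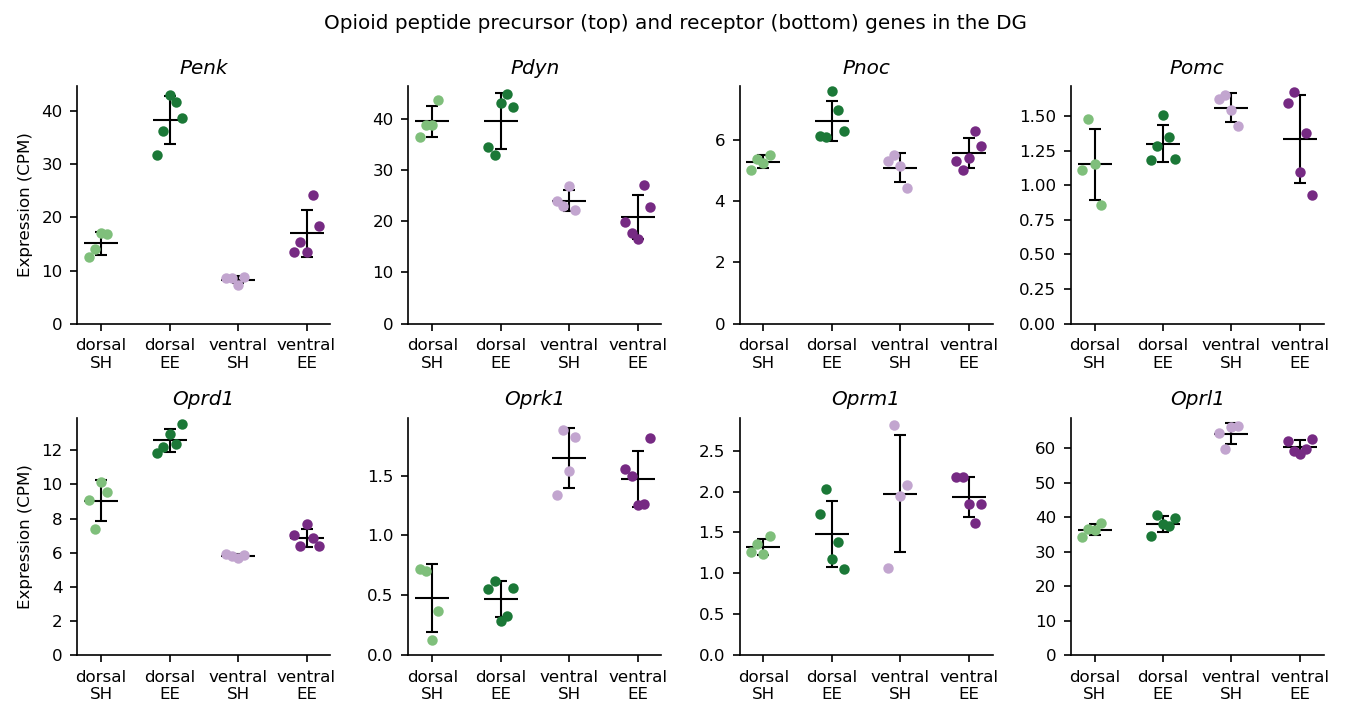
Expression (CPM after TMM, axis from 0) of each gene in the 18 samples, with precursors in the upper and receptors in the lower row. Points are samples, and black bars are mean ± SD (n = 4 for SH, n = 5 for EE). *Penk* and *Oprd1* lie higher in EE than SH in both regions, and *Oprk1* and *Oprl1* lie lower in all dorsal than in all ventral samples.

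*Penk* had the largest difference of the 4 precursors between regions. It also had the largest between housings, which is the comparison by which the set was chosen. In dorsal SH its expression was 12.5, 14.1, 17.0 and 16.8 CPM in replicates 1, 2, 4 and 5, and in ventral SH it was 8.58, 8.68, 7.25 and 8.69 CPM. In dorsal EE it was 31.8, 36.3, 43.0, 41.8 and 38.8 CPM, and in ventral EE 13.5, 15.3, 13.5, 24.2 and 18.4 CPM. Every EE sample was above every SH sample of its region, and every dorsal sample above the ventral sample of its pool. EE replicate 4 had the highest value in ventral DG, nearer to dorsal EE than those of the other 4 pools. The same sample had the highest ventral *Pdyn* (27.2 CPM) and the highest summed granule cell markers of the ventral samples (1018 CPM). Dorsal expression was 2.02-fold higher than ventral (log2 fold change 1.01 ± 0.10 SE, adjusted p = 1.39e-08). As a description, EE was 2.54-fold above SH in dorsal DG (log2 1.35 ± 0.13) and 2.05-fold in ventral DG (log2 1.03 ± 0.15). The pool left out, which the choice of the genes did not use, had a dorsal value of 14.7 CPM and a ventral value of 8.19 CPM, within the range of the other SH samples in both.

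*Pdyn* differed between the regions but hardly between housings. Dorsal SH had 36.6, 39.0, 39.0 and 43.9 CPM and ventral SH 24.0, 23.1, 27.0 and 22.2 CPM. Dorsal EE had 34.6, 33.1, 43.2, 45.0 and 42.5 CPM and ventral EE 19.8, 17.7, 16.7, 27.2 and 22.8 CPM. All dorsal samples were above all ventral ones, while EE and SH overlapped in both regions. The dorsal to ventral difference was 1.77-fold (log2 0.82 ± 0.08, adjusted p = 1.03e-08). The EE difference was 0.00 ± 0.11 on the log2 scale in dorsal and -0.21 ± 0.12 in ventral DG.

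*Pnoc* and *Pomc* were low and did not pass the test between regions. *Pnoc* had 5.02 to 5.51 CPM in dorsal SH and 6.09 to 7.60 in dorsal EE, without overlap, and 4.42 to 5.52 against 5.03 to 6.30 CPM in ventral DG, with overlap. Its EE difference was 0.32 ± 0.09 in dorsal and 0.13 ± 0.09 in ventral DG (log2), and its region difference 0.15 ± 0.06 (adjusted p = 0.0505). *Pomc*, whose precursor yields beta-endorphin in the hypothalamus and pituitary, had 0.856 to 1.68 CPM over the 18 samples, from 23 to 46 counts. Its region difference was -0.24 ± 0.13 (log2, adjusted p = 0.109), and at this depth no EE difference could be seen beside its spread (0.18 ± 0.18 in dorsal, -0.24 ± 0.17 in ventral DG). Markers of hypothalamus and pituitary were near 0, with a summed expression of 1.29 to 4.27 CPM over 10 genes, of which 7 were below the count filter.

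Among the receptors, *Oprd1* followed the direction of *Penk* in both comparisons. Its expression was 9.07, 7.36, 10.2 and 9.53 CPM in dorsal SH and 11.8, 12.2, 12.9, 12.4 and 13.5 CPM in dorsal EE. In ventral DG it was 5.93, 5.82, 5.67 and 5.85 CPM in SH and 7.03, 6.38, 7.68, 6.85 and 6.41 CPM in EE. EE samples were above SH samples in both regions, by 1.39-fold in dorsal (log2 0.48 ± 0.08) and 1.18-fold in ventral DG (log2 0.24 ± 0.09). The ventral sample of the pool left out had 6.51 CPM, above the 2 lowest ventral EE values, so the ventral groups overlap once it is counted. Dorsal expression was 1.68-fold higher (log2 0.75 ± 0.06, adjusted p = 2.62e-10), in 9 of 9 pools.

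The kappa and nociceptin receptors ran the other way between regions. *Oprk1* had 3 to 20 counts per dorsal sample and 32 to 50 per ventral sample, or 0.128 to 0.717 CPM against 1.25 to 1.88 CPM, with no overlap. Ventral expression was 3.23-fold higher (log2 -1.69 ± 0.19, dorsal minus ventral, adjusted p = 1.23e-07), the largest difference of the 8 genes between regions. Thus the receptor of dynorphin was lower in the region where *Pdyn* was higher. *Oprl1* had the smallest error: 34.3 to 38.3 CPM in dorsal SH, 34.7 to 40.6 in dorsal EE, 59.9 to 66.5 in ventral SH and 58.3 to 62.7 in ventral EE. Its ventral expression was 1.67-fold higher (log2 -0.74 ± 0.03, adjusted p = 4.77e-14), in 9 of 9 pools. EE and SH overlapped for both receptors in both regions. The EE difference of *Oprk1* was -0.04 ± 0.34 (log2) in dorsal and -0.16 ± 0.22 in ventral DG, and the dorsal value ran from -0.33 to 0.23 when 1 pool was left out.

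*Oprm1*, the mu receptor, was the least certain call. Its dorsal values were 1.25, 1.36, 1.24 and 1.45 CPM in SH and 1.73, 2.03, 1.18, 1.39 and 1.05 CPM in EE, from 29 to 49 counts. Its ventral values were 1.06, 2.82, 1.95 and 2.08 CPM in SH and 2.17, 2.17, 1.84, 1.61 and 1.85 CPM in EE, from 30 to 75 counts. Ventral expression was higher in 8 of 9 pools, by 1.39-fold (log2 -0.48 ± 0.15, adjusted p = 0.0108), but the groups overlapped in both housings. Without SH replicate 2, which holds the highest value, the difference was -0.37 with an adjusted p of 0.0510 and was no longer called. Fragments on the opposite strand of *Oprm1* numbered 55 to 78 per dorsal and 24 to 41 per ventral sample. They outnumbered those on its own strand in 9 of 9 dorsal samples and were fewer in 8 of 9 ventral samples.

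**Figure D3:**
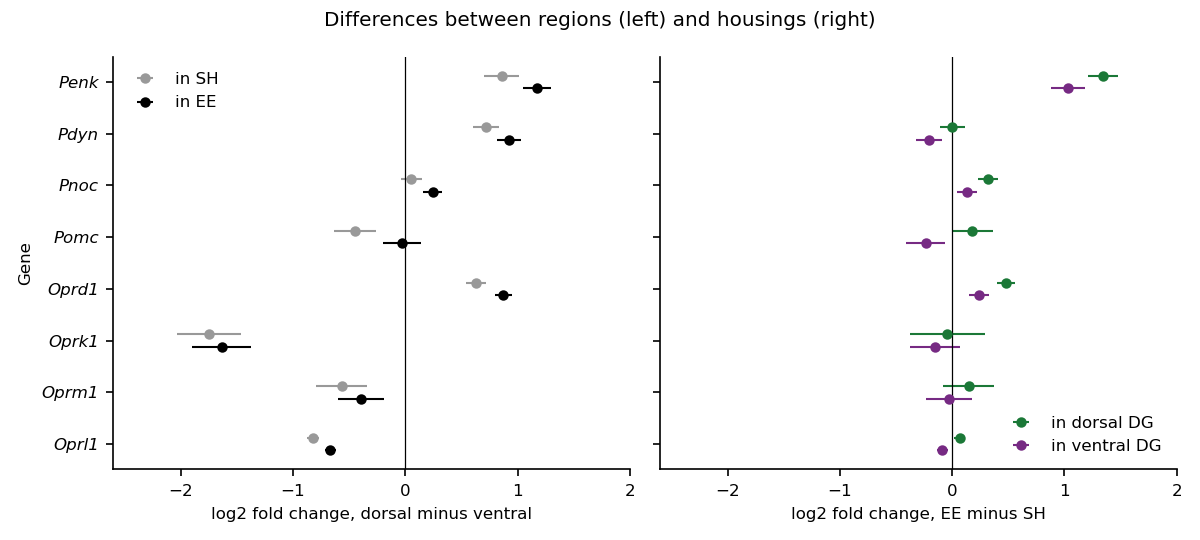
Log2 fold changes of the 8 genes between dorsal and ventral DG (left, in SH and in EE) and between EE and SH (right, in dorsal and in ventral DG), with lines of 1 SE to each side. *Penk*, *Pdyn* and *Oprd1* lie right of 0 and *Oprk1*, *Oprm1* and *Oprl1* left of 0 on the left. On the right, the comparison by which the set was chosen, *Penk* has the largest values (1.35 and 1.03).

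In the comparison by which the set was chosen, *Penk* and *Oprd1* were called in dorsal DG and *Penk* in ventral DG, all higher in EE. Of all genes, 0.634% were called in dorsal DG (0.387% higher) and 0.241% in ventral DG (0.182% higher). In CPM, EE and SH did not overlap for 3 genes in dorsal DG (*Penk*, *Pnoc*, *Oprd1*), beside 3.99% of all genes (2.21% higher in EE). In ventral DG they did not overlap for 2 (*Penk*, *Oprd1*), beside 2.45% (1.28% higher). Nothing is read from these counts. In TPM, EE and SH still did not overlap for *Penk*, but they did for *Oprd1* in both regions and for *Pnoc*. In dorsal DG, *Oprd1* had 0.71 to 1.4 TPM in SH and 1.16 to 1.65 TPM in EE. Whether the effect of EE differed between the regions is a question the choice did not use. The interaction was above 0 for all 8 genes, beside a median of -0.0031 (log2) over all genes, and was called for none. These 8 values come from the same libraries, so nothing is read from their common sign. Of all 17040 genes, 1 (0.00587%) was called by edgeR (553 at an unadjusted p under 0.05, 2 called with the replicate block). For *Penk* the difference between the EE effects was 0.31 ± 0.20 (log2, 95% interval -0.10 to 0.73, adjusted p = 1.00), and for *Oprd1* 0.24 ± 0.12 (-0.00 to 0.48, adjusted p = 1.00). The interval of *Oprl1* was the only one of the 8 to leave out 0 (0.16 ± 0.07, 0.01 to 0.30), with EE values of 0.07 ± 0.05 in dorsal and -0.09 ± 0.05 in ventral DG, and it did not pass the correction (adjusted p = 1.00). The sign was less sure for *Oprm1* (0.18 ± 0.31) and *Oprk1* (0.11 ± 0.41), where it turned without one of the SH pools.

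The balance of enkephalin to dynorphin precursor needs no scaling between libraries. These counts are not scaled for length, and *Penk* has 1634 exonic bases against 2887 for *Pdyn*. The ratio thus compares groups and does not say which gene had the higher level. For each 100 counts of *Pdyn* there were 38.1 ± 4.15 counts of *Penk* in dorsal SH (SD, n = 4) and 34.8 ± 5.51 in ventral SH (n = 4). There were 97.1 ± 7.77 in dorsal EE (n = 5) and 81.2 ± 8.05 in ventral EE (n = 5). The SH regions were alike in this ratio, with ranges of 34.1 to 43.7 and 26.8 to 39.1, and in EE all dorsal values (91.3 to 109.6) were above all ventral ones (68.2 to 89.0). Since the rise of *Penk* chose the set, the step from SH to EE in this ratio is a description.

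Granule cell markers moved with the regions. Their summed expression was 1642 to 1821 CPM in dorsal SH, 871 to 1006 in ventral SH, 1548 to 1739 in dorsal EE and 698 to 1018 in ventral EE. Among the most abundant of the list, *C1ql2* (log2 0.89 ± 0.07, dorsal minus ventral) and *Stxbp6* (0.97 ± 0.06) differed about as much as *Pdyn*, and *Calb1* (0.21 ± 0.06) less. Per 1000 CPM of these markers, *Pdyn* had 22.9 ± 1.91 CPM in dorsal SH, 26.4 ± 0.916 in ventral SH, 23.9 ± 2.13 in dorsal EE and 25.0 ± 1.62 in ventral EE. The excess of *Pdyn* in dorsal samples was thus not present on the scale of this sum. In SH its direction turned without overlap, with 20.1 to 24.4 in dorsal and 25.1 to 27.1 in ventral samples. In EE its dorsal (21.4 to 25.9) and ventral (22.9 to 26.7) ranges overlapped. The sum is not neutral between regions, since it includes *Lct*, which the study names as enriched in dorsal DG. The outcome also depends on the markers taken, as *Calb1* differed less between regions than *Pdyn*. *Penk* on the same scale had 8.75 ± 1.44 in dorsal SH and 9.17 ± 1.31 in ventral SH, but 23.2 ± 1.86 in dorsal EE and 20.3 ± 2.29 in ventral EE, so the values in EE stayed above those in SH. Between regions, its ranges overlapped in both housings. They were 6.85 to 10.2 in dorsal and 7.21 to 9.96 in ventral SH, and 20.1 to 25.1 in dorsal and 17.6 to 23.8 in ventral EE. For *Oprl1* the scale widened the contrast, from 21.0 ± 1.54 in dorsal to 70.6 ± 4.16 in ventral SH. For *Oprd1* it turned the direction of the mean as well, from 5.22 ± 0.678 in dorsal to 6.41 ± 0.514 in ventral SH. In EE the *Oprd1* means were 7.62 ± 0.370 in dorsal and 8.49 ± 1.69 in ventral DG. Its dorsal and ventral ranges overlapped in both housings. No granule cell marker was called between EE and SH in either region. The part of granule cell share in the regional differences was not tested.

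**Figure D4:**
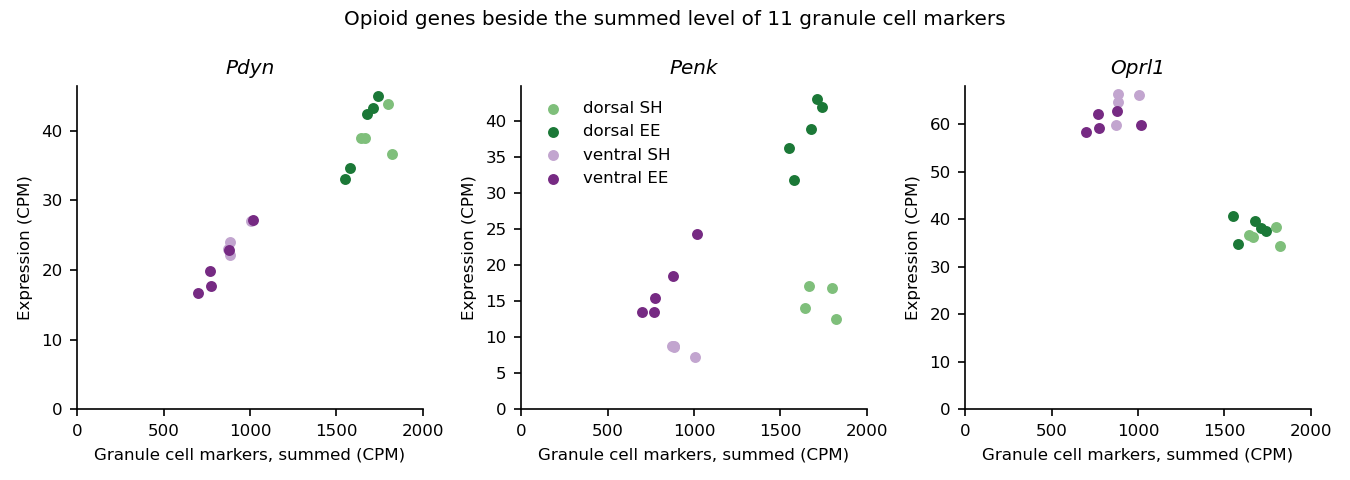
Expression (CPM) of *Pdyn*, *Penk* and *Oprl1* against the summed expression of 11 granule cell markers (CPM), one point per sample, both axes from 0. *Pdyn* lies along one band through all 4 groups, *Penk* in 2 bands with EE above SH, and *Oprl1* is high where the markers are low.

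Other tissues moved with the regions too. The choroid plexus list summed to 401.5 to 1471 CPM in ventral and 26.1 to 218 CPM in dorsal samples, led by *Ttr*. Dorsal SH replicate 1 had the highest dorsal sum and the lowest dorsal *Oprl1* (34.3 CPM) but the highest dorsal *Oprk1* (0.717 CPM). Ventral EE replicate 3 had the highest sum of all and the lowest ventral *Oprl1* (58.3 CPM). Of 10 thalamus markers, 7 were higher in dorsal DG, led by *Prkcd* (log2 2.32 ± 0.08), and of 8 habenula markers tested, 4 were higher. GABAergic markers summed to 782 to 892 CPM with all groups overlapping, with 1 of 12 called higher and 5 lower in dorsal DG. The list of striatum and amygdala, where *Penk* and *Pdyn* are abundant, summed to 65.0 to 71.9 CPM in SH and 72.6 to 82.5 CPM in EE. Without its gene *Drd1*, the mean sum in dorsal DG was 57.8 CPM in SH and 57.8 CPM in EE. In ventral DG this mean was 65.0 CPM in SH and 71.5 CPM in EE. The study reported higher *Drd1* in EE and placed its expression in granule cells of the DG. Some genes of the lists for other cells were called higher in EE, and these are named here after their values were seen. They were *Drd1* of the striatum list (log2 0.72 ± 0.10 in dorsal and 1.23 ± 0.15 in ventral DG, adjusted p = 0.000493 and 0.000116) and *Npy* of the GABAergic list (0.60 ± 0.07 and 0.40 ± 0.07, adjusted p = 4.00e-05 and 0.00846). Called in dorsal DG and not in ventral DG, with no interaction called, were *Nmb* of the mossy cell and CA3 list (0.51 ± 0.11, adjusted p = 0.0208) and *Lrrc55* of the habenula list (0.38 ± 0.09, adjusted p = 0.0420). The median EE difference of the 8 habenula markers tested was 0.96 in dorsal DG, while the summed list overlapped there between SH (68.4 to 78.7 CPM) and EE (67.4 to 82.4 CPM). The parts of these tissues in the values of the opioid genes were not tested.

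Genes with a pattern like that of *Penk* were sought by Pearson correlation of log2 CPM over the 18 samples, among 14104 genes with a mean above 1 CPM. These samples share pools and libraries, and the values are descriptions. After the group means were taken out, the closest were *Dpp7* (r = 0.83), *Dph1* (0.82), *Tmem132a* (0.81), *A230077H06Rik* (0.81) and *Wdr76* (0.80). Among the opioid genes, *Pdyn* (0.73) and *Pnoc* (0.62) varied most like *Penk* within groups. *Oprd1*, in contrast, had 0.12, *Oprl1* 0.24, *Pomc* -0.10, *Oprm1* -0.29 and *Oprk1* -0.43. With the group differences left in, genes among the closest were *Npy* (0.95), *Npas4* (0.93), *Nptx2* (0.92) and *Slc38a5* (0.91), and *Oprd1* then had 0.87. The likeness of *Oprd1* to *Penk* was thus between groups and not within them. For *Pdyn*, looked at after its values were seen, the closest gene within groups was the granule cell marker *Calb1* (0.94).

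The other genes of the pathway were counted in 4 lists with 64 genes, all of which were tested. Between regions 22 were called (14 higher and 8 lower in dorsal DG), or 34.4%, which is near the 32.7% of all genes. Between EE and SH 6 were called in each region (9.38%, beside 0.634% of all genes in dorsal and 0.241% in ventral DG), all higher in EE. The lists were drawn up with earlier results of these data known, so the EE counts are no independent evidence.

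Precursor processing and peptide breakdown (16 genes) had 1 gene higher and 4 lower in dorsal DG, with a median log2 fold change of -0.03 (0.00 over all genes). *Pcsk2*, the convertase that completes the cutting of proenkephalin and prodynorphin, was higher (log2 0.62 ± 0.05, adjusted p = 6.45e-10), from 313 to 377 CPM in dorsal against 188 to 264 CPM in ventral DG. *Pcsk1*, the convertase of the earlier cuts, was lower (-0.73 ± 0.07, adjusted p = 4.55e-09), as was *Scg5* (-0.51 ± 0.04, adjusted p = 9.92e-11), the chaperone of *Pcsk2*. *Ace*, a peptidase, was lowest (-1.47 ± 0.17, adjusted p = 1.78e-07), with 4.85 to 8.64 CPM in dorsal and 10.4 to 25.2 CPM in ventral DG. It is also expressed in choroid plexus, whose markers moved the same way. The part of choroid plexus in the values of *Ace* was not tested. None of the 16 genes was called between EE and SH. Of 5 granins, the proteins that fill dense-core vesicles, *Chgb* (0.29 ± 0.09, adjusted p = 0.00822) and *Scg2* (0.27 ± 0.05, adjusted p = 3.66e-05) were higher in dorsal DG, and none was called between EE and SH.

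Receptor signaling and its regulation (29 genes) had 4 genes higher and 4 lower in dorsal DG, with a median of -0.02. The largest difference was in *Adcy1*, an adenylyl cyclase that inhibitory G proteins restrain (1.38 ± 0.06, adjusted p = 1.51e-14), with 3331 ± 188 CPM (SD, n = 4) in dorsal and 1246 ± 62.4 CPM (n = 4) in ventral SH. The potassium channel subunits *Kcnj3* (0.62 ± 0.04) and *Kcnj6* (0.60 ± 0.07), which opioid receptors open through G proteins, were also higher in dorsal DG (adjusted p = 4.07e-12 and 1.01e-07). The receptor kinase *Grk3* (-0.75 ± 0.06), the cyclase *Adcy5* (-0.55 ± 0.07) and the G protein subunit *Gnai1* (-0.52 ± 0.05) were lower (adjusted p = 2.42e-10, 6.01e-07 and 6.37e-09). Between EE and SH only *Rgs4* of this list was called. This gene, whose product shortens G protein signals, rose in dorsal DG from 120 ± 3.14 to 165 ± 10.9 CPM (log2 0.47 ± 0.06, adjusted p = 0.000202) and in ventral DG from 131 ± 6.63 to 160.0 ± 13.5 CPM (0.29 ± 0.06, adjusted p = 0.0305).

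The list of transcription factors at opioid peptide genes had 14 genes, whose action at the genes of this set was not tested. Of these, 7 were higher and none lower in dorsal DG, with a median of 0.27, beside 15.9% of all genes higher and 16.8% lower. *Atf3* (1.60 ± 0.15), *Npas4* (1.11 ± 0.10) and *Egr1* (0.98 ± 0.08) differed most (adjusted p = 6.39e-09, 1.74e-09 and 8.66e-10). Between EE and SH the same 5 genes were called higher in each region, beside 0.387% of all genes in dorsal and 0.182% in ventral DG, and all are known to be induced by neuronal activity. In dorsal DG they were *Npas4* (1.27 ± 0.12), *Fos* (0.76 ± 0.12), *Fosb* (0.67 ± 0.13), *Fosl2* (0.38 ± 0.06) and *Junb* (0.33 ± 0.07), with adjusted p from 1.82e-06 to 0.0305. In ventral DG the values were 1.65 ± 0.15, 1.26 ± 0.13, 1.05 ± 0.13, 0.43 ± 0.06 and 0.38 ± 0.08, with adjusted p from 3.01e-06 to 0.0267. For all 5 factors the ventral value was the larger and for *Penk* the dorsal one. For none of these genes was the difference between the regions called (adjusted p = 1.00 for *Npas4*, *Fos*, *Fosb* and *Penk*). The medians of the list were 0.20 in dorsal and 0.24 in ventral DG, beside 0.00 over all genes in both.

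**Figure D5:**
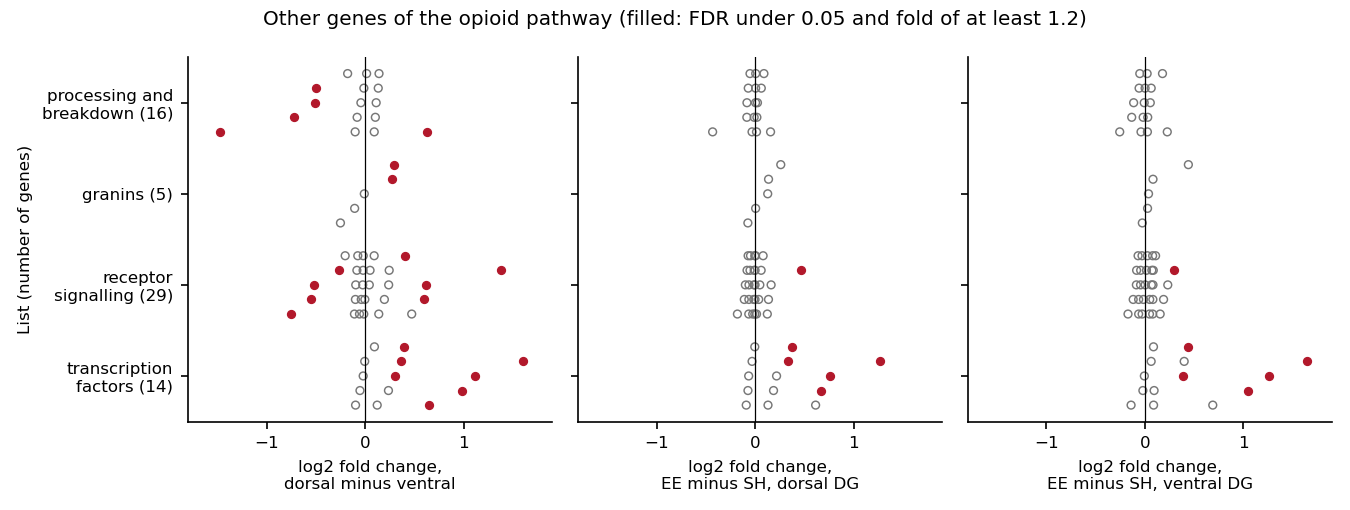
Log2 fold changes of the 64 other pathway genes, in rows by list, between regions (left) and between EE and SH in dorsal (middle) and ventral DG (right). Each circle is a gene, spread vertically for legibility, and filled circles are called. Both directions are filled between regions in 2 of the 4 lists, while all 6 filled circles of each EE panel lie right of 0.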

How the data were processed

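RNA-Seq tables of 20 samples were used. The bisulfite and TAB samples of the series were not analysed here. The authors trimmed reads with Trim Galore 0.4.0, aligned them to mm10 with STAR 2.5.1b and deposited counts of fragments per gene, unstranded and for each strand. The expected count, TPM and FPKM of RSEM 1.2.30 were also deposited. Versions are from the processing notes of the submitters. Samples were grouped by their labels. Counts on the gene's strand were tested in edgeR 4.0.16 (R 4.3.3) with TMM and quasi-likelihood tests, 4 groups in one model, for genes above 10 counts in 2 or more samples. SE is the log2 fold change divided by the root of its F statistic. SH replicate 3 was taken to be the sample excluded by the study for *Xist*, which the study does not number. TPM served for levels between genes, and correlations used log2 CPM with a prior count of 2. Of 46480 genes, 45968 had a symbol. The procedure was tested on simulated data. Expected counts were rounded where used, and DESeq2 1.42.0 and FPKM served as alternatives. Other alternatives were RLE size factors, other count filters, unstranded counts, no fold limit, separate fits, a joint test of both housings, all 20 samples, a replicate block and leaving out each pool. Dorsal and ventral samples of one number come from the same mice, as the study connects them. Deviations from group means correlated with r from -0.0809 to 0.191 between them.

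The 8 genes and all lists were chosen with earlier results of these data known. Named from each pathway list were genes called between EE and SH and the 3 largest differences each way among those called between regions. Also named were the 5 genes closest to *Penk*, and 2 to 4 of the most abundant markers of lists described. One gene close to *Penk* is not reported here. Pools are the replicates. Python 3.11.15, numpy 2.4.6, pandas 2.3.3 and matplotlib 3.10.9 were also used.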

Additional observations from a re-analysis of the deposited data

Results flagged for a closer look

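*Penk* in ventral SH replicate 4 was 7.25 CPM, while the other 3 samples of the group lay close together at 8.58 to 8.69 CPM. This gap to the rest was the only one of its kind among 32 groups of values (8 genes in 4 groups), and chance flags about 1 in 20. The same sample had the highest *Pdyn* of ventral SH (27.0 CPM).

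Every sample had fragments on the opposite strand of *Oprm1*, which the comparisons do not use, with at least 24 and at most 78 counts. The genes *Ipcef1* and *Gm10945* lie on that strand across exons of *Oprm1*.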

How the results depend on the processing

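Between regions, 6 opioid genes were called (5 without SH replicate 2, which ends the call of *Oprm1*, and 7 with unstranded counts, where *Pomc* is added at log2 -0.28 and adjusted p = 0.0455). No interaction of an opioid gene was called under any alternative run. Of 296 tests of single genes under alternatives, 291 kept their direction and side of the threshold, and the 304 EE values of single genes each moved by less than the spread between replicates. The interaction of *Oprm1* ranged from -0.03 to 0.37 and that of *Oprk1* from -0.14 to 0.48 when 1 pool was left out, turning for *Oprm1* without SH replicate 2 (-0.035) and for *Oprk1* without SH replicate 4 (-0.14) or 5 (-0.05). The cause was not tested. Other pathway genes called between regions numbered 22, and 37 with no fold limit. Over all genes, leaving out 1 pool gave 70 to 109 EE genes in dorsal DG (108 in full, 70 without SH replicate 4) and 18 to 50 in ventral DG (41 in full, 18 without SH replicate 4, 24 without SH replicate 2, 26 without EE replicate 3), and 0 interactions. In ventral DG DESeq2 gave 76, no count filter 78 and a separate fit 25. Between regions, no fold limit gave 9949 genes in place of 5573. The order of mean levels over the samples held with all 20 samples, with FPKM and when any 1 pool was left out. The order within single groups was not checked in this way. At 3 to 75 counts per sample, *Oprk1*, *Oprm1* and *Pomc* allow no small differences to be seen.

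With the replicate block (the pool for region and interaction tests, the replicate number for EE tests), 6 opioid genes were called between regions, as without it, and between EE and SH 8 other pathway genes in each region in place of 6. It changed no call of an opioid gene. Over all genes it gave 172 in dorsal and 87 in ventral DG. EE and SH samples share only a number, and their deviations correlated with r from 0.0755 to 0.181.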
